A study of Mus musculus with 12 samples.

Results

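The genes described here are 47 collagens and other extracellular matrix genes of mouse, listed by gene symbol. Of these, 44 had a probe set annotated to that gene alone and were measured, among 18193 such genes in all. Fbn1, Efemp2 and Loxl2 had no probe set of their own and are not analysed here. The 44 comprised 6 fibrillar collagens, 5 other interstitial collagens, 11 basement membrane genes, 5 proteoglycans, 8 glycoproteins of elastic fibres, 6 adhesive and matricellular glycoproteins, and 3 genes of collagen processing and cross-linking.

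The extracellular matrix is the protein scaffold that cells secrete around themselves. Fibrillar collagens form the tension-bearing fibres of connective tissue, which small proteoglycans such as decorin space apart and lysyl oxidases cross-link. Basement membranes are thin sheets built on networks of laminin and collagen IV that nidogens and perlecan join together. In skin, fibroblasts secrete most of the interstitial matrix and melanoma cells can also make matrix.

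The arrays measured C790 mouse melanoma cells at day 20 in 4 groups of 3. All cells had received 2 lentiviral vectors, one with Oct4, Sox2 and Klf4 and blasticidin resistance under a doxycycline-inducible promoter, the other with the constitutive M2 transactivator and mCherry, so the controls carried both vectors too. The +dox cells had been induced with doxycycline, selected with blasticidin and kept in reprogramming medium, and are the partially reprogrammed cells. The −dox cells were not induced. Each kind of cell was exposed for 72 h to trametinib, an inhibitor of the kinases MEK1 and MEK2, or to its solvent DMSO, which gave the groups +dox trametinib, +dox DMSO, −dox trametinib and −dox DMSO. C790 is a single line, the trametinib dose of the arrays is not given in the sources used here, and induction cannot be told apart from selection and exposure to doxycycline. Whether the 3 arrays of a group came from separate cultures is not given either, so the p-values given here reflect the spread between arrays, which may be technical.

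Values are the deposited log2 intensities of 1 probe set per gene. A level of 4.86, below which lay 95% of the means of 86 probe sets for olfactory, vomeronasal and taste receptors, was taken as background. The array medians lay between 5.18 and 5.37. The −dox arrays numbered 1 stood apart: that of −dox DMSO differed from replicates 2 and 3 by a root mean square of 0.576 and 0.507 over all genes, against 0.209 between those 2. Of 44 matrix genes, 15 on −dox trametinib replicate 1 and 9 on −dox DMSO replicate 1 lay over 1 log2 unit from the mean of the other arrays of their group, against 0 to 8 on the other 10 arrays. Of 10 melanocyte markers, Mitf, Pmel and Sox10 were above background in all 4 groups, whereas the pigment genes Tyr, Tyrp1, Dct and Mlana were not. Of 12 fibroblast markers, 8 were above background in +dox trametinib, 8 in +dox DMSO, 9 in −dox trametinib and 8 in −dox DMSO cells, among them Pdgfra, Pdgfrb, Prrx1 and Twist2, while Thy1, Dpt and Pi16 were under it in all 4. The mean of the 12 per array lay between 7.30 and 7.46, 6.98 and 7.28, 7.63 and 8.10, and 7.68 and 7.99 in these groups. Probe sets of the induced factors did not follow the label: Sox2 averaged 6.10 in +dox and 6.95 in −dox cells under trametinib and 5.87 and 7.40 under DMSO, and Klf4 10.02 and 10.04, and 9.30 and 9.45. Pou5f1, the gene of Oct4, had higher means in +dox cells. It averaged 5.88 in +dox and 5.50 in −dox cells under trametinib, and 5.45 and 4.63 (under background) under DMSO. Whether these probe sets detect the vector transcripts is not given in the sources used here, so +dox and −dox stand for the labels. In bulk RNA, fewer cells of a type and less RNA per cell cannot be told apart.

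The +dox cells had lower mRNA of many interstitial matrix genes and higher mRNA of Col4a1 and Col4a2, 2 of the collagen IV chains. Under trametinib, 14 of 44 genes differed between +dox and −dox cells at an adjusted p under 0.05 (limma, adjusted by Benjamini-Hochberg over 18193 genes), of which 10 were lower and 4 higher in +dox cells. These 14 are 31.8% of the measured genes, against 3.37% of all genes tested, where 1.42% were lower and 1.95% higher. Under DMSO, 12 were lower and 4 higher, together 36.4%, against 6.15% of all genes (3.28% lower and 2.87% higher). The median change of the 44 was -0.31 on the log2 scale under trametinib and -0.45 under DMSO, beside -0.02 and 0.01 over all genes. Both drug conditions had 7 lower genes in common (Col1a1, Col3a1, Col12a1, Bgn, Fbln2, Emilin1 and Fn1) and 3 higher ones (Col4a1, Col4a2 and Mfap5). Their group means share no array, but the spread of each gene was estimated from all arrays together. The calls of both conditions are therefore not independent. The shared lower genes are 7 of 10 under trametinib and 7 of 12 under DMSO. By class, the lower genes under trametinib and under DMSO were 2 and 3 of 6 fibrillar collagens, 1 and 2 of 5 other interstitial collagens, 2 and 2 of 5 proteoglycans, 2 and 3 of 8 elastic fibre genes and 3 and 1 of 6 adhesive glycoproteins, and Loxl1 passed under DMSO. Of 11 basement membrane genes 3 were higher under each drug condition. Pdgfra, a receptor of fibroblasts and other mesenchymal cells, averaged 6.55 ± 0.45 in +dox trametinib and 6.64 ± 0.44 in +dox DMSO cells, against 7.75 ± 0.44 in −dox trametinib and 8.71 ± 0.15 in −dox DMSO cells (SD, n = 3 each). Pdgfrb averaged 7.34 ± 0.58 and 7.15 ± 0.79 in these +dox groups, against 8.53 ± 0.98 and 9.55 ± 0.58 in the −dox groups. Without both −dox arrays numbered 1, 24 genes differed under trametinib, 18 lower and 6 higher, and 17 under DMSO, 13 lower and 4 higher. That fit was chosen after seeing the data. Its share of all genes called is not given here, so these counts cannot be set against it. The Pdgfrb arrays overlapped under trametinib. Of the other fibroblast markers above background in all 4 groups, Twist2 averaged 6.4 in +dox and 7.36 in −dox cells under trametinib, and 7.70 and 8.70 under DMSO. In this order S100a4 averaged 11.87 and 12.58, and 13.26 and 13.62, and Lsp1 5.76 and 6.02, and 6.02 and 7.23. Prrx1 averaged 11.17 and 11.53, and 9.93 and 10.55, and Ccdc80 12.45 and 12.82, and 9.35 and 9.61. Cd34 averaged 10.29 and 10.15, and 10.05 and 10.39. The part of these markers in the result was not tested.

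**Figure D1:**
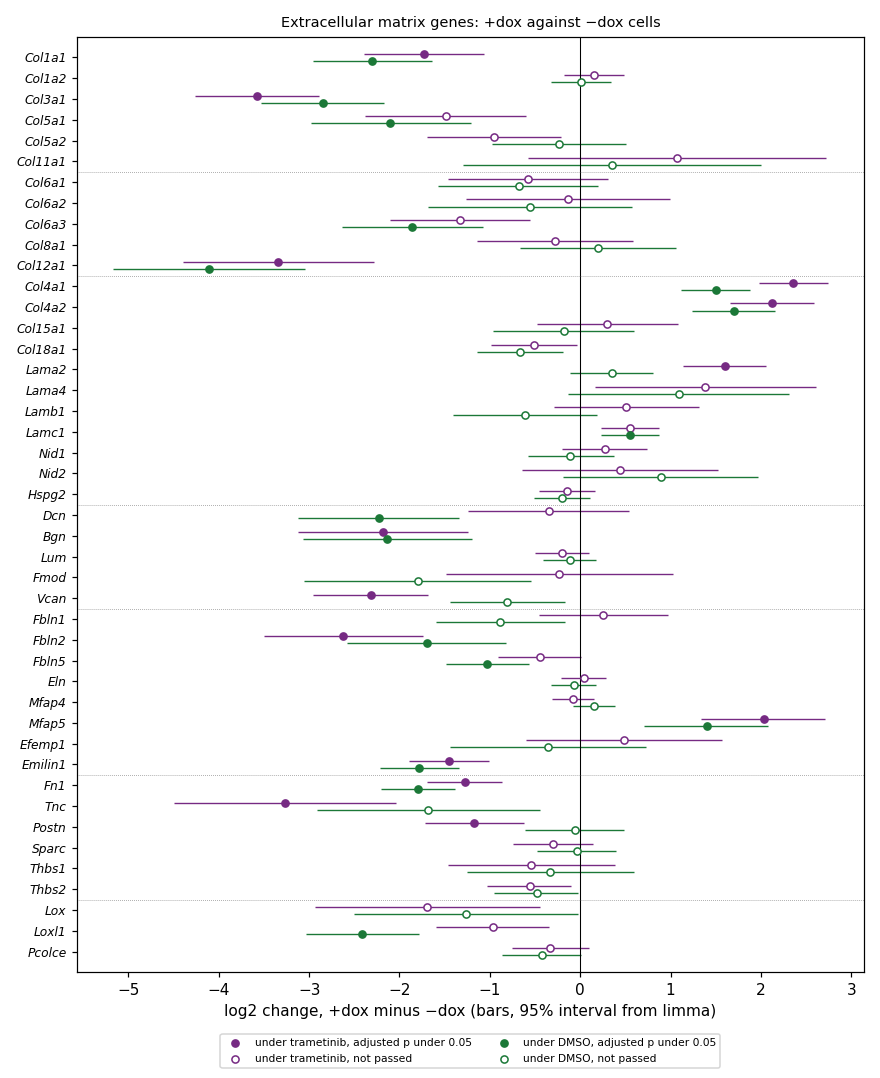
The log2 change of each matrix gene, +dox minus −dox cells, is plotted with its 95% interval from limma, under trametinib (purple) and under DMSO (green); filled points passed an adjusted p under 0.05 and dotted lines part the gene classes. Lower genes lie among the collagens, proteoglycans and glycoproteins, with Col12a1 at -4.11 under DMSO, while Col4a1 and Col4a2 lie between 1.5 and 2.36.

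Trametinib raised more matrix genes than it lowered in both kinds of cell. In +dox cells 15 of 44 rose and 5 fell, which is 45.5%, against 26.2% of all genes (13.8% higher and 12.5% lower). In −dox cells 17 rose and 4 fell, which is 47.7%, against 22.4% of all genes (11.6% higher and 10.8% lower). The median change of the 44 was 0.55 in +dox and 0.49 in −dox cells, beside 0.02 and 0.06 over all genes. Both kinds of cell shared 12 rises (Col1a1, Col3a1, Col6a1, Col6a2, Col15a1, Lama2, Lamc1, Nid2, Dcn, Fmod, Fbln5 and Mfap5) and 3 falls (Col18a1, Lamb1 and Loxl1). Their means came from separate arrays, but the spread again came from all arrays together. The shared rises are 12 of 15 in +dox cells and 12 of 17 in −dox cells. By class, the rises in +dox and in −dox cells were 2 and 2 of 6 fibrillar collagens, 2 and 3 of 5 other interstitial collagens, 6 and 4 of 11 basement membrane genes, 2 and 2 of 5 proteoglycans and 3 and 4 of 8 elastic fibre genes, and 2 of 6 adhesive glycoproteins rose in −dox cells. The falls included 2 and 3 basement membrane genes. Each −dox comparison shares its DMSO arrays with the comparison of +dox and −dox cells under DMSO, and likewise for the other groups, so these comparisons are not independent of one another. Without −dox trametinib replicate 3, 13 genes changed with trametinib in −dox cells, 9 up and 4 down. Among the fibroblast markers, whose array means stand above, Ccdc80 moved with the drug, averaging 12.45 ± 0.23 in +dox trametinib and 9.35 ± 0.12 in +dox DMSO cells, and 12.82 ± 0.44 in −dox trametinib and 9.61 ± 0.29 in −dox DMSO cells. Prrx1 also had higher means with the drug, 11.17 against 9.93 in +dox and 11.53 against 10.55 in −dox cells. Fap, near or under background in all groups, averaged 4.86 in −dox trametinib and 4.04 in −dox DMSO cells. Some other fibroblast markers had lower means with the drug. Twist2 averaged 6.4 in +dox trametinib and 7.70 in +dox DMSO cells, and 7.36 in −dox trametinib and 8.70 in −dox DMSO cells. S100a4 averaged 11.87 and 13.26 in the +dox groups, and 12.58 and 13.62 in the −dox groups. In −dox cells Lsp1 averaged 6.02 with trametinib and 7.23 with DMSO, and the means of Pdgfra and Pdgfrb given above were also lower with trametinib. The part of these markers in the trametinib result was not tested.

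**Figure D2:**
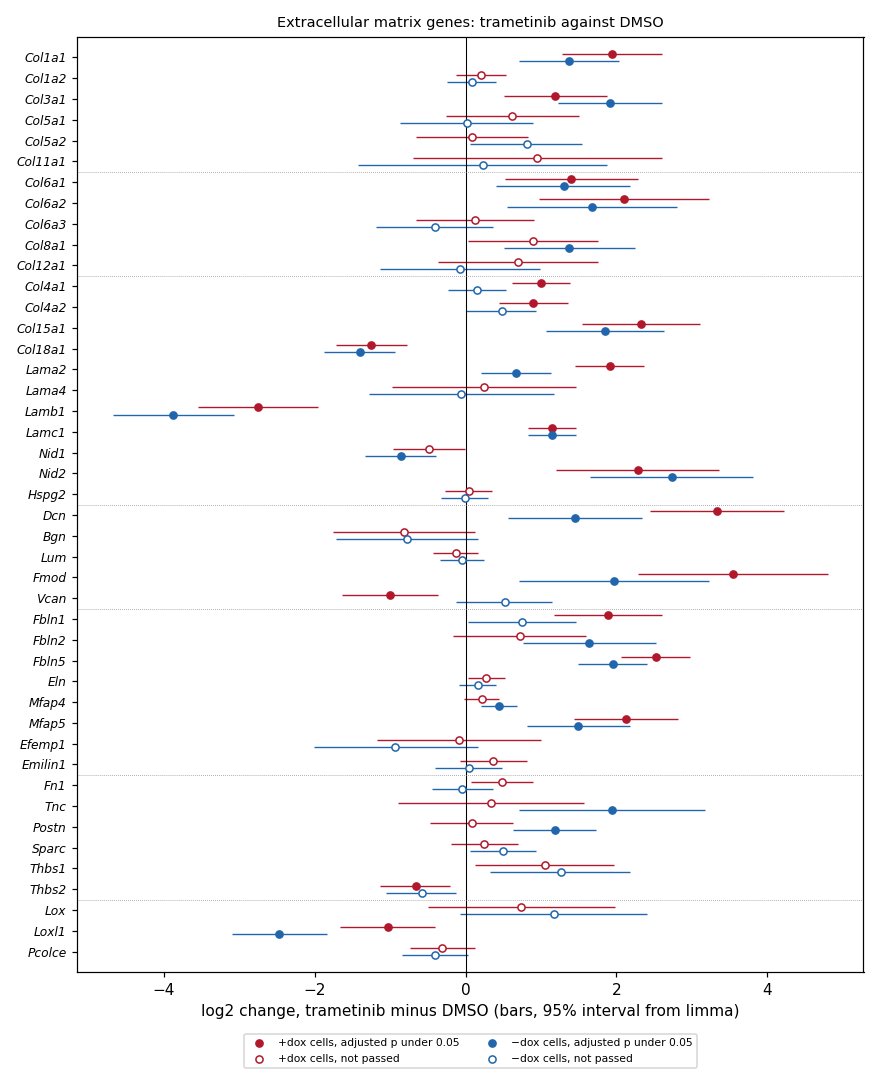
The log2 change of each matrix gene, trametinib minus DMSO, is plotted with its 95% interval from limma in +dox cells (red) and −dox cells (blue); filled points passed an adjusted p under 0.05. Lamb1 lies at -2.75 in +dox and -3.87 in −dox cells, and Fmod at 3.54 and 1.97.

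Col1a1 and Col3a1 mRNA were lower in +dox than in −dox cells and rose with trametinib. Col1a1 measured 8.29, 8.88 and 8.11 on the +dox trametinib arrays, 6.53, 6.67 and 6.26 on +dox DMSO, 9.36, 10.68 and 10.44 on −dox trametinib and 8.68, 8.82 and 8.87 on −dox DMSO. Col1a1 encodes the major chain of the type I fibril. No array of +dox cells reached the −dox arrays of the same drug, and every trametinib array exceeded the DMSO arrays of the same cells. In +dox cells Col1a1 was 3.32-fold lower under trametinib (log2 change -1.73, standard error 0.30, adjusted p = 0.0094, and 0.063 on the arrays compared alone) and 4.94-fold lower under DMSO (-2.30, adjusted p = 0.0017). Trametinib raised it 3.84-fold in +dox cells (adjusted p = 0.00073) and 2.58-fold in −dox cells (adjusted p = 0.0073). Col3a1 read 9.32, 8.63 and 9.22 on the +dox trametinib arrays, 8.70, 7.65 and 7.25 on +dox DMSO, 12.52, 12.85 and 12.53 on −dox trametinib and 10.59, 10.91 and 10.65 on −dox DMSO. Col3a1, the chain of the type III fibrils of skin and vessel walls, was 11.9-fold lower in +dox cells under trametinib (-3.58, standard error 0.31, adjusted p = 0.00012) and 7.21-fold lower under DMSO (-2.85, adjusted p = 0.00069), with no overlap. It rose with trametinib by 1.19 in +dox cells (adjusted p = 0.015), where +dox trametinib replicate 2 lay just under +dox DMSO replicate 1, and by 1.92 in −dox cells (adjusted p = 0.0013). The rise in +dox cells ended without +dox trametinib replicate 1 or 3 or without +dox DMSO replicate 2 or 3 (adjusted p between 0.052 and 0.063). The second probe set of each of these genes gave the same 4 calls.

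The other fibrillar chains were less uniform. Col5a1, a chain of the type V collagen that nucleates fibrils, was 4.28-fold lower in +dox cells under DMSO (7.94 ± 0.38 against 10.03 ± 0.36, SD, n = 3 each, adjusted p = 0.013), a call that ended without +dox DMSO replicate 2 (adjusted p = 0.061). Under trametinib its change was -1.49 (adjusted p = 0.076, and 0.042 with the replicate number as a block). Col5a2, its partner chain, had a change of -0.95 under trametinib (adjusted p = 0.19, and 0.02 with the block) and -0.23 under DMSO. Col11a1, a minor fibrillar chain known from cartilage, averaged 8.41 ± 0.50 in +dox trametinib, 7.46 ± 0.19 in +dox DMSO, 7.34 ± 1.56 in −dox trametinib and 7.11 ± 1.39 in −dox DMSO cells. Its wide −dox spread lay in the arrays numbered 1, which read 5.55 and 5.53. Col1a2, which encodes the second chain of type I collagen, was under background in all 4 groups on each of its 3 probe sets, so no change can be given for it.

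Among the other interstitial collagens the largest dox difference was that of Col12a1, a collagen that decorates the surface of type I fibrils. Col12a1 read 6.47, 6.41 and 6.34 on the +dox trametinib arrays, 5.67, 5.65 and 5.79 on +dox DMSO, 8.43, 10.66 and 10.16 on −dox trametinib and 8.99, 10.28 and 10.18 on −dox DMSO. Every +dox array lay below every −dox array, by 10.1-fold on average under trametinib (-3.34, standard error 0.48, adjusted p = 0.0034) and 17.3-fold under DMSO (-4.11, adjusted p = 0.00089). Its trametinib change in +dox cells was 0.70, with no overlap of the arrays (adjusted p = 0.35, but 0.0017 on the compared arrays alone and 0.0018 without both −dox arrays numbered 1). In −dox cells it was -0.07 (adjusted p = 0.94). A further probe set gave -1.90 and -2.14 for the dox comparisons, of which only the change under DMSO passed, and its other 2 were under background. Col6a3, one of the chains of the beaded type VI filaments, was 3.64-fold lower in +dox cells under DMSO (8.72 ± 0.17 against 10.59 ± 0.37, adjusted p = 0.012), without −dox DMSO replicate 3 at adjusted p = 0.051. Under trametinib its change was -1.33 (adjusted p = 0.073, and 0.018 with the block).

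The partner chains Col6a1 and Col6a2 did not pass the test for dox and rose with trametinib. In +dox cells Col6a1 averaged 9.88 ± 0.11 with trametinib and 8.47 ± 0.21 with DMSO (adjusted p = 0.024). In −dox cells it averaged 10.45 ± 0.47 and 9.16 ± 1.02 (adjusted p = 0.039). Col6a2 rose by 2.10 in +dox (adjusted p = 0.01) and by 1.68 in −dox cells (adjusted p = 0.037). The −dox arrays overlapped for both genes, the DMSO array numbered 1 reading 10.24 for Col6a1 and 9.10 for Col6a2. In −dox cells the call of Col6a1 ended on leaving out any of 9 arrays (adjusted p between 0.053 and 0.13, change 0.83 without −dox DMSO replicate 2) and that of Col6a2 on leaving out any of 7 (between 0.05 and 0.13). In +dox cells the call of Col6a1 ended without +dox trametinib replicate 1 or 3 or +dox DMSO replicate 2 or 3 (between 0.063 and 0.075). Col8a1, a short-chain collagen of vessel walls and the cornea, rose by 1.37 with trametinib in −dox cells (adjusted p = 0.028), which ended without −dox DMSO replicate 1 or −dox trametinib replicate 2 or 3 (between 0.071 and 0.1). In +dox cells its change was 0.90 (adjusted p = 0.13, and 0.041 with the block).

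Of the small leucine-rich proteoglycans, which bind collagen fibrils, decorin and fibromodulin rose with trametinib in both kinds of cell. Dcn read 9.82, 9.30 and 9.76 on the +dox trametinib arrays, 7.15, 5.87 and 5.87 on +dox DMSO, 10.68, 9.34 and 9.91 on −dox trametinib and 8.70, 7.97 and 8.91 on −dox DMSO. The +dox DMSO arrays were the lowest and overlapped no other group. Decorin mRNA rose 10.1-fold with trametinib in +dox cells (log2 change 3.33, standard error 0.40, adjusted p = 0.00016) and 2.73-fold in −dox cells (1.45, adjusted p = 0.025), and it was 4.69-fold lower in +dox than in −dox cells under DMSO (-2.23, adjusted p = 0.0094). Under trametinib its dox change was -0.35 (adjusted p = 0.82). The rise in −dox cells ended without −dox trametinib replicate 1 or 3 or −dox DMSO replicate 2 (adjusted p between 0.061 and 0.088). Fmod measured 9.70, 8.36 and 9.86 on the +dox trametinib arrays, 6.52, 4.56 and 6.23 on +dox DMSO, 8.90, 9.64 and 10.08 on −dox trametinib and 7.39, 6.93 and 8.38 on −dox DMSO. Fibromodulin had its group means in the order of decorin, with +dox DMSO replicate 2 the lowest array and under background. It rose 11.6-fold in +dox cells (log2 change 3.54, standard error 0.57, adjusted p = 0.00097) and 3.93-fold in −dox cells (1.97, adjusted p = 0.03), and all 6 of its probe sets rose in both. In −dox cells the call ended without −dox DMSO replicate 1 or 2 or −dox trametinib replicate 2 or 3 (between 0.067 and 0.11). Its dox change under DMSO was -1.80 (adjusted p = 0.096, and 0.025 with the block).

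Biglycan and versican behaved otherwise. Bgn read 10.01, 10.13 and 10.83 on the +dox trametinib arrays, 11.45, 10.43 and 11.54 on +dox DMSO, 11.47, 13.26 and 12.78 on −dox trametinib and 13.06, 13.42 and 13.35 on −dox DMSO. Biglycan, a small proteoglycan closely related to decorin, was lower on each +dox array than on each −dox array of the same drug. The difference was 4.53-fold under trametinib (-2.18, standard error 0.43, adjusted p = 0.018) and 4.40-fold under DMSO (-2.14, adjusted p = 0.015), and all 3 probe sets passed in both. The call under trametinib ended without +dox trametinib replicate 1 or 2 or −dox trametinib replicate 2 or 3 (adjusted p between 0.071 and 0.079) and on the compared arrays alone (0.063), and that under DMSO without +dox DMSO replicate 2 or −dox DMSO replicate 3 (between 0.053 and 0.066). Vcan measured 7.23, 7.81 and 6.83 on the +dox trametinib arrays, 8.17, 8.27 and 8.42 on +dox DMSO, 9.87, 9.99 and 8.97 on −dox trametinib and 9.42, 9.02 and 8.84 on −dox DMSO. Versican, a large proteoglycan that carries chondroitin sulfate and binds hyaluronan, was 4.99-fold lower in +dox cells under trametinib (-2.32, standard error 0.29, adjusted p = 0.0013). Under DMSO its change was -0.81 (adjusted p = 0.14). Trametinib lowered it by 1.00 in +dox cells (adjusted p = 0.025), which ended without +dox trametinib replicate 1 or 3 or +dox DMSO replicate 2 or 3 (between 0.063 and 0.1), and its change in −dox cells was 0.52 (adjusted p = 0.24). Lumican was under background in all 4 groups.

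**Figure D3:**
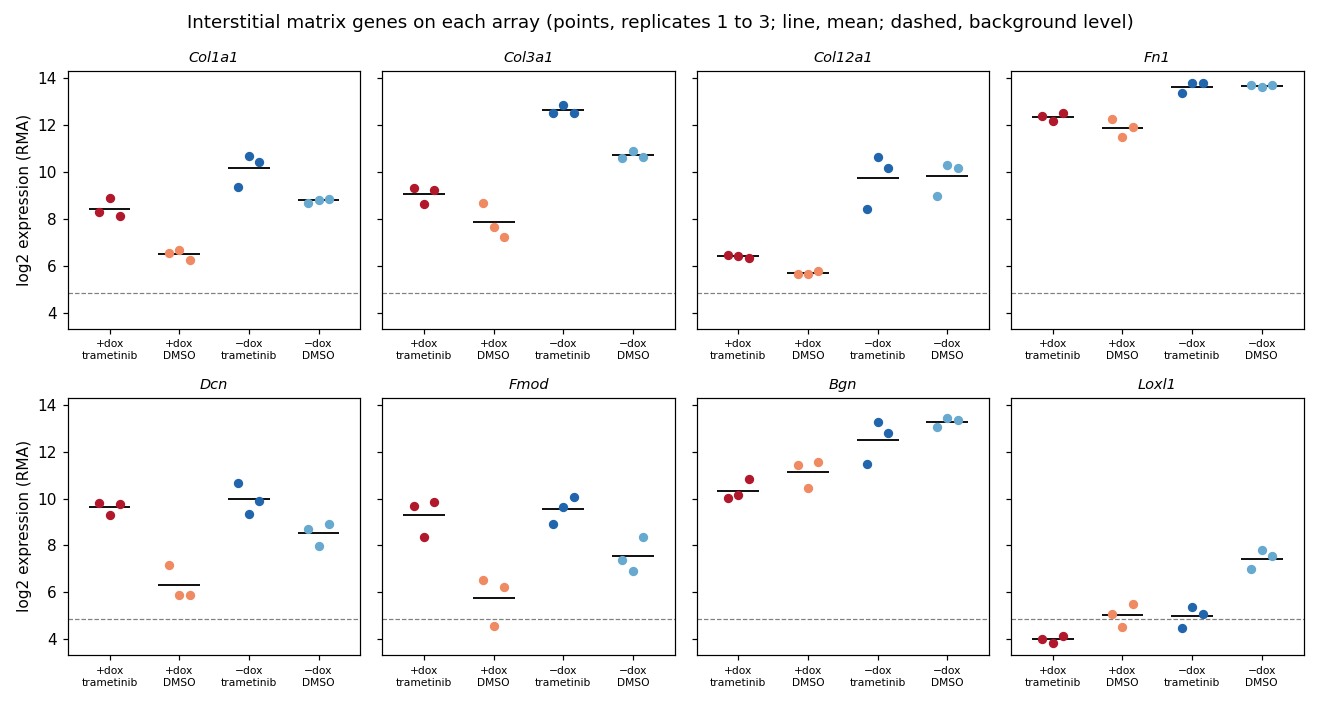
Log2 expression of 8 interstitial matrix genes is plotted for each array (points, replicates 1 to 3 from left to right) by group, with the group mean (line) and the background level of 4.86 (dashed). The 3 +dox DMSO arrays of Dcn lie between 5.87 and 7.15, under those of the other groups, and Col12a1 lies between 5.65 and 6.47 on all +dox arrays.

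The elastic fibre glycoproteins differed among themselves. Fibulins, short secreted proteins that link elastin, microfibrils and basement membranes, differed from one another. Fbln2 read 8.91, 9.66 and 9.61 on the +dox trametinib arrays, 8.25, 8.73 and 9.04 on +dox DMSO, 11.06, 12.51 and 12.48 on −dox trametinib and 9.84, 10.89 and 10.39 on −dox DMSO. Fibulin-2 was 6.16-fold lower in +dox cells under trametinib (-2.62, standard error 0.40, adjusted p = 0.0045) and 3.25-fold lower under DMSO (-1.70, adjusted p = 0.031), with no overlap. The call under DMSO ended on leaving out any +dox DMSO array or −dox DMSO replicate 2 or 3 (adjusted p between 0.063 and 0.096). Trametinib raised it by 1.64 in −dox cells (adjusted p = 0.013), lost without −dox trametinib replicate 2 or 3 (between 0.052 and 0.057), and its change in +dox cells was 0.72 (adjusted p = 0.24, and 0.018 with the block). Fbln5 measured 12.04, 11.94 and 11.96 on the +dox trametinib arrays, 9.49, 9.63 and 9.26 on +dox DMSO, 12.26, 12.40 and 12.64 on −dox trametinib and 10.01, 10.45 and 11.00 on −dox DMSO. Fibulin-5, which is needed for elastic fibre assembly, had no overlap between trametinib and DMSO arrays. It rose 5.74-fold with trametinib in +dox cells (log2 change 2.52, standard error 0.21, adjusted p = 1.9e-05) and 3.85-fold in −dox cells (1.95, adjusted p = 0.00014). It was lower by 1.03 in +dox cells under DMSO (adjusted p = 0.016, and 0.077 without +dox DMSO replicate 3), with a change of -0.45 under trametinib. Fibulin-1 rose with trametinib in +dox cells by at least 1.83 (adjusted p = 0.0014), since its +dox DMSO mean of 4.80 was under background. Under DMSO its dox change did not pass (adjusted p = 0.15, and 0.0072 with the block). Another Fbln1 probe set, above background in at least 1 group, changed by -0.06 with trametinib in +dox cells and did not pass. Its dox change under DMSO was 0.08.

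Mfap5, a microfibril-associated glycoprotein, was the elastic fibre gene higher in +dox cells. Mfap5 read 7.01, 7.80 and 7.19 on the +dox trametinib arrays, 4.54, 5.89 and 5.20 on +dox DMSO, 5.04, 5.56 and 5.32 on −dox trametinib and 3.70, 3.63 and 4.11 on −dox DMSO. All −dox DMSO arrays were under background and all +dox trametinib arrays at least 7.01. It was 4.07-fold higher in +dox cells under trametinib (2.03, standard error 0.31, adjusted p = 0.0046) and at least 0.35 log2 units higher under DMSO (adjusted p = 0.025). With trametinib it rose 4.36-fold in +dox cells (adjusted p = 0.00051) and at least 0.45 log2 units in −dox cells (adjusted p = 0.0055). Under DMSO the call for dox ended without +dox DMSO replicate 2 or 3 or −dox DMSO replicate 1 or 2 (between 0.055 and 0.085), and a dimmer probe set, at -0.02, did not carry it. Emilin1, a glycoprotein at the interface of elastin and microfibrils, averaged 8.04 ± 0.27 in +dox and 9.49 ± 0.38 in −dox cells under trametinib (adjusted p = 0.0026). Under DMSO the means were 7.67 ± 0.23 and 9.45 ± 0.16 (adjusted p = 0.00074), and trametinib changed it by 0.37 and 0.04 in +dox and −dox cells, neither past the test. Elastin itself lay between 5.25 and 5.76 on all arrays, with changes between -0.07 and 0.27 that did not pass, and Efemp1, a fibulin-like protein, passed in no comparison. Mfap4 was under background in all 4 groups, so its call for trametinib in −dox cells carries no fold.

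Fibronectin, the adhesive glycoprotein that many integrins bind, was lower in +dox cells. Fn1 averaged 12.36 ± 0.19 in +dox and 13.64 ± 0.25 in −dox cells under trametinib (2.43-fold, adjusted p = 0.0035), and 11.88 ± 0.38 and 13.68 ± 0.05 under DMSO (3.49-fold, adjusted p = 0.00054). Its trametinib changes were 0.48 in +dox (adjusted p = 0.085, and 0.019 without +dox DMSO replicate 1) and -0.04 in −dox cells. The second, dimmer probe set of Fn1 gave dox changes of -1.75 under trametinib (adjusted p = 0.34) and -2.91 under DMSO (adjusted p = 0.049), while its differences with trametinib were -1.0 in +dox cells and -2.16 in −dox ones, neither past the test (adjusted p = 0.4 and 0.06). With both probe sets averaged, the dox difference under trametinib had adjusted p = 0.073. Tnc measured 5.77, 7.58 and 6.98 on the +dox trametinib arrays, 5.51, 7.13 and 6.66 on +dox DMSO, 9.07, 10.80 and 10.28 on −dox trametinib and 7.56, 8.43 and 8.35 on −dox DMSO. Tenascin-C, a matricellular protein of wounds and tumour stroma, was 9.67-fold lower in +dox cells under trametinib (-3.27, standard error 0.56, adjusted p = 0.0088), with every +dox array below the −dox arrays. Under DMSO the change was -1.68 (adjusted p = 0.11, and 0.00073 with the block). Trametinib raised it by 1.94 in −dox cells (adjusted p = 0.029), which ended without −dox DMSO replicate 1 or 3 or −dox trametinib replicate 2 or 3 (between 0.056 and 0.11), and its change in +dox cells was 0.34 (adjusted p = 0.73).

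Thbs2 measured 9.04, 9.23 and 9.0 on the +dox trametinib arrays, 9.95, 9.62 and 9.69 on +dox DMSO, 9.41, 9.98 and 9.57 on −dox trametinib and 10.75, 9.97 and 9.99 on −dox DMSO. Thrombospondin-2, an inhibitor of new vessel growth, fell with trametinib by 0.66 in +dox cells (adjusted p = 0.038), a call that ended on leaving out any of 7 arrays (between 0.053 and 0.12). Its related gene Thbs1, which activates latent TGF-beta, had changes of 1.05 in +dox (adjusted p = 0.096, and 0.0028 with the block) and 1.26 in −dox cells (adjusted p = 0.054). Sparc, a collagen-binding glycoprotein, read between 12.63 and 13.78 on all arrays and passed in no comparison. Periostin was above background in −dox trametinib cells only, on arrays 1 and 2, at a group mean of 5.0 ± 0.65. It was there higher than in −dox DMSO cells by at least 0.14 (adjusted p = 0.0061), and lower in +dox than in −dox cells under trametinib by at least 0.14 (adjusted p = 0.028). The call for dox ended without any +dox trametinib array or without −dox trametinib replicate 2 (between 0.077 and 0.094), and the fitted rise with trametinib was 1.18 with all arrays and 0.76 without both −dox arrays numbered 1.

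Of the genes that process and cross-link collagen, 1 changed. Loxl1 read 4.02, 3.82 and 4.16 on the +dox trametinib arrays, 5.06, 4.54 and 5.49 on +dox DMSO, 4.47, 5.38 and 5.07 on −dox trametinib and 7.0, 7.79 and 7.53 on −dox DMSO. Loxl1, a lysyl oxidase that acts on elastin, was highest on the −dox DMSO arrays, which overlapped no other group. It fell 5.53-fold with trametinib in −dox cells (log2 change -2.47, standard error 0.28, adjusted p = 0.0002) and dropped by at least 0.17 in +dox cells, whose trametinib mean was under background (adjusted p = 0.019, and between 0.051 and 0.086 without +dox trametinib replicate 1 or 2 or +dox DMSO replicate 1 or 3). Under DMSO it was 5.31-fold lower in +dox than in −dox cells (-2.41, adjusted p = 0.00089). A second, dimmer probe set had changes between -0.31 and -0.14. Lox, the lysyl oxidase of collagen fibres, averaged 7.37 ± 0.82, 6.63 ± 0.98, 9.06 ± 0.88 and 7.89 ± 0.46 in +dox trametinib, +dox DMSO, −dox trametinib and −dox DMSO cells and passed in no comparison. Pcolce, an enhancer of procollagen C-proteinase, did not pass either, with changes between -0.42 and -0.31.

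Of the basement membrane genes, only Col4a1 and Col4a2, the most widespread chains of the collagen IV network, passed for dox under both drug conditions. Lama2 passed under trametinib only and Lamc1 under DMSO only, and the dox changes of Col18a1 and Hspg2 were negative under both without passing. Col4a1 read 12.09, 12.04 and 12.10 on the +dox trametinib arrays, 10.97, 11.22 and 11.03 on +dox DMSO, 9.47, 10.07 and 9.62 on −dox trametinib and 9.36, 9.92 and 9.44 on −dox DMSO. Col4a2 read 10.99, 11.03 and 11.03 on the +dox trametinib arrays, 9.87, 10.37 and 10.11 on +dox DMSO, 8.48, 9.25 and 8.95 on −dox trametinib and 8.07, 8.75 and 8.43 on −dox DMSO. For both genes every +dox array exceeded every −dox array, and +dox trametinib was the highest group. Col4a1 was 5.12-fold higher in +dox cells under trametinib (2.36, standard error 0.17, adjusted p = 3.9e-05) and 2.83-fold higher under DMSO (1.5, adjusted p = 0.00081), and Col4a2 4.36-fold and 3.25-fold higher (adjusted p = 0.00029 and 0.0013). Trametinib raised both in +dox cells, Col4a1 by 1.00 (adjusted p = 0.0014) and Col4a2 by 0.90 (adjusted p = 0.0082). In −dox cells the changes were 0.15 and 0.48 (adjusted p = 0.61 and 0.14). The second probe set of Col4a1 made the same calls.

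Col4a1 and Col4a2 lie head to head and are known to share a promoter region between them. Their RefSeq promoter windows, which run from 250 bases before to 50 after the start, are shown because these chains moved together. On GRCm38.p6 they are chr8:11312777-11313076 on the minus strand for Col4a1 and chr8:11312555-11312854 on the plus strand for Col4a2. Capitals mark the 78 bases, chr8:11312777-11312854, that both windows hold on opposite strands.
Col4a1: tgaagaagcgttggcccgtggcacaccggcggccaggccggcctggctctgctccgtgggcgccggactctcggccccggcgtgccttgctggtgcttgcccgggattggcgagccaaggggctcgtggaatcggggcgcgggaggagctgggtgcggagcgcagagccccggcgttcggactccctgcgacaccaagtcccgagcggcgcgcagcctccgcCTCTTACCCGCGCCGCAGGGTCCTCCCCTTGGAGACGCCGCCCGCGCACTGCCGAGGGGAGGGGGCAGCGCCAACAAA
Col4a2: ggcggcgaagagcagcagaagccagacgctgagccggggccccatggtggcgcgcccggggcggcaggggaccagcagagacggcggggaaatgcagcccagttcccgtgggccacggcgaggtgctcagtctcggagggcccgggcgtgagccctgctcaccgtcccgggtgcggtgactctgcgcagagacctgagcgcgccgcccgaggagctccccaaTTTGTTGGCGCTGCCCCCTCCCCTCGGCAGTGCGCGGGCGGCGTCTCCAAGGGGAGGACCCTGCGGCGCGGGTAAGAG
The table held windows for 31 of 47 listed genes. The GC box GGGCGG, searched on both strands, was in the windows of 22 of the 31, Col4a1 and Col4a2 among them, and in 35.7% of 32851 windows of the same length. TATAAA was found for 4 of the 31 (Col3a1, Postn, Thbs2 and Tnc; 13.6% of all windows), GGAATG, the core bound by TEAD factors, for 4 (14.7%), the AP-1 letters TGANTCA for 2 (Col6a1 and Efemp1; 7.81%) and the CArG box for 1 (Lama2; 1.63%). A listed gene was counted if any of its windows held the letters, whereas the percentages are of single windows, so the measures differ. A match is only a match of letters.

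The laminin chains split. Lamb1 measured 7.38, 8.97 and 8.77 on the +dox trametinib arrays, 11.31, 10.91 and 11.16 on +dox DMSO, 7.93, 8.30 and 7.35 on −dox trametinib and 11.51, 11.91 and 11.78 on −dox DMSO. Lamb1, the beta chain of laminin-111 and its relatives, had no overlap between trametinib and DMSO arrays. It fell 6.74-fold in +dox cells (log2 change -2.75, standard error 0.36, adjusted p = 0.00027) and 14.7-fold in −dox cells (-3.87, adjusted p = 6.5e-05), and 3 of its 4 probe sets fell in both, the fourth being under background. Lamc1 read 10.81, 10.90 and 10.95 on the +dox trametinib arrays, 9.72, 9.75 and 9.75 on +dox DMSO, 9.94, 10.52 and 10.56 on −dox trametinib and 9.13, 9.16 and 9.28 on −dox DMSO. Lamc1, the gamma chain that joins the same trimers, was higher on every trametinib array than on every DMSO array. The rise was 2.21-fold in +dox cells (log2 change 1.15, standard error 0.14, adjusted p = 0.00021) and 2.22-fold in −dox cells (1.15, adjusted p = 0.00031). Its dox change was 0.55 under trametinib (adjusted p = 0.071, and 0.039 with the block) and 0.55 under DMSO (adjusted p = 0.048), the second being lost on leaving out any of 10 arrays (between 0.052 and 0.15). Lama2 measured 7.17, 7.97 and 7.78 on the +dox trametinib arrays, 5.57, 5.84 and 5.77 on +dox DMSO, 5.94, 6.31 and 5.87 on −dox trametinib and 5.23, 5.21 and 5.68 on −dox DMSO. Lama2, the alpha chain of muscle laminin-211, was highest on all 3 +dox trametinib arrays. It rose 3.77-fold with trametinib in +dox cells (log2 change 1.91, standard error 0.21, adjusted p = 8.8e-05) and by 0.67 in −dox cells (adjusted p = 0.041), where the call ended on leaving out any of 8 arrays (between 0.052 and 0.14). In +dox cells it was 3.03-fold higher under trametinib (1.60, adjusted p = 0.0018), with a change of 0.35 under DMSO (adjusted p = 0.4).

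The promoter window of Lamb1, which fell most of the 44 genes with trametinib, is chr12:31265043-31265342 on the plus strand of GRCm38.p6, with 2 GC boxes, read on the opposite strand, in capitals.
Lamb1: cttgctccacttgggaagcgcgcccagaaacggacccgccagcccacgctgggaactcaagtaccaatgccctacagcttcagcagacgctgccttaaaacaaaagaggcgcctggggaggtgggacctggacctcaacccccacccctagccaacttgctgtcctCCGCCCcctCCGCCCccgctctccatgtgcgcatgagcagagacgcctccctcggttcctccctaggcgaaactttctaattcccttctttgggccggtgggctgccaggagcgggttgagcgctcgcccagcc
Lama4, an alpha chain of vessel basement membranes, averaged 10.49 ± 0.19 in +dox and 9.11 ± 0.91 in −dox cells under trametinib, and 10.25 ± 0.06 and 9.17 ± 1.29 under DMSO. Neither difference passed (adjusted p = 0.26 and 0.31), and the −dox arrays numbered 1, at 10.00 and 10.61, lay well above the others of their groups. Without both of these arrays the changes were 1.83 under trametinib (adjusted p = 0.0032) and 1.81 under DMSO (adjusted p = 0.0034), and without −dox DMSO replicate 1 alone the second had adjusted p = 0.027. With array weights both passed (adjusted p = 0.033 and 0.0051).

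The 2 nidogens, which bridge laminin to collagen IV, also went apart. Nid2 measured 10.38, 11.02 and 11.10 on the +dox trametinib arrays, 8.02, 8.68 and 8.96 on +dox DMSO, 9.59, 10.68 and 10.91 on −dox trametinib and 6.47, 8.17 and 8.35 on −dox DMSO. Nidogen-2 rose 4.86-fold with trametinib in +dox cells (log2 change 2.28, standard error 0.49, adjusted p = 0.005) and 6.63-fold in −dox cells (2.73, adjusted p = 0.0023), with no overlap, although both −dox arrays numbered 1 were the lowest of their groups. Its dox change under DMSO was 0.89 (adjusted p = 0.36, and 0.029 with the block). Nid1 read 10.73, 11.00 and 11.13 on the +dox trametinib arrays, 11.60, 11.20 and 11.51 on +dox DMSO, 10.11, 11.02 and 10.92 on −dox trametinib and 11.43, 11.61 and 11.59 on −dox DMSO. The change of nidogen-1 with trametinib was -0.48 in +dox cells (adjusted p = 0.13), and it fell 1.82-fold in −dox cells (log2 change -0.86, standard error 0.22, adjusted p = 0.015, and 0.059 on the compared arrays alone).

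Collagens XV and XVIII, which carry heparan or chondroitin sulfate chains in basement membranes, moved in opposite directions with trametinib. Col15a1 measured 8.99, 7.50 and 8.35 on the +dox trametinib arrays, 6.04, 6.14 and 5.67 on +dox DMSO, 8.48, 7.36 and 8.10 on −dox trametinib and 6.41, 6.03 and 5.96 on −dox DMSO. Every trametinib array was above every DMSO array, by 5.03-fold on average in +dox cells (log2 change 2.33, standard error 0.35, adjusted p = 0.00065) and 3.6-fold in −dox cells (1.85, adjusted p = 0.0034). Col18a1 read 6.05, 6.10 and 6.54 on the +dox trametinib arrays, 7.73, 6.99 and 7.71 on +dox DMSO, 6.89, 6.70 and 6.64 on −dox trametinib and 7.97, 8.46 and 8.0 on −dox DMSO. Col18a1, whose C-terminal fragment is endostatin, fell 2.37-fold in +dox cells (log2 change -1.25, standard error 0.22, adjusted p = 0.0014) and 2.64-fold in −dox cells (-1.40, adjusted p = 0.00093), with no overlap within either kind of cell. Its dox changes were -0.51 under trametinib and -0.67 under DMSO (adjusted p = 0.29 and 0.099). Perlecan (Hspg2), the heparan sulfate proteoglycan of basement membranes, read between 8.66 and 9.25 on all arrays, with changes between -0.20 and 0.04 that did not pass.

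**Figure D4:**
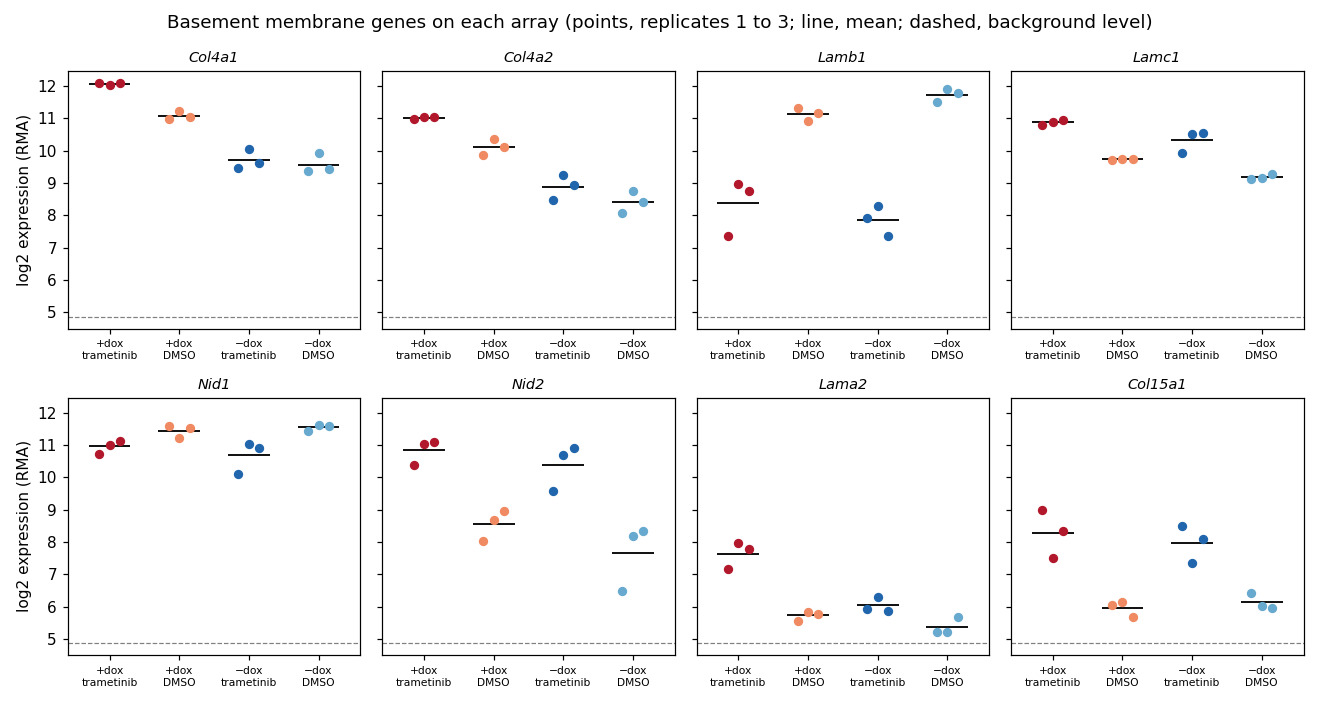
Log2 expression of 8 basement membrane genes is plotted for each array (points, replicates 1 to 3 from left to right) by group, with the group mean (line) and the background level of 4.86 (dashed). Lamb1 lies between 7.35 and 8.97 on the trametinib arrays, against 10.91 to 11.91 on the DMSO arrays, while Lamc1 and Nid2 lie higher with trametinib.

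Whether the change with the drug itself differed between the 2 kinds of cell was tested as the response of +dox cells minus that of −dox cells. Of 44 genes 0 passed in limma without the replicate block, against 0.33% of all genes called. At an unadjusted p under 0.05 there were 7, or 15.9%, against 11.6% of all genes. The median difference was 0.23, beside -0.02 over all genes. The 7 were Col4a1 (0.86, 95% interval 0.32 to 1.40), Lama2 (1.25, 0.60 to 1.90), Dcn (1.88, 0.62 to 3.14), Vcan (-1.51, -2.41 to -0.61), Fbln1 (1.14, 0.12 to 2.16), Postn (-1.10, -1.88 to -0.33) and Loxl1 (1.44, 0.55 to 2.32), with adjusted p between 0.12 and 0.36. Postn, Loxl1 and Fbln1 each had at least 1 group mean under background, and another Fbln1 probe set had a difference of -0.14. With the replicate number as a block 3 genes passed (Dcn, Fbln1 and Tnc, adjusted p = 0.049, 0.047 and 0.023). That block also treats the −dox arrays as paired by number, which was not assumed otherwise. With arrays weighted by their quality 5 passed (Lama2, Dcn, Vcan, Fbln5 and Loxl1). For Lamc1 the difference was 0.00, with an interval of -0.45 to 0.45.

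Genes of the same pathways outside the list gave further context. Of 23 measured genes of collagen maturation, the enzymes that hydroxylate, fold and trim procollagen, 5 differed in +dox cells under trametinib and 4 under DMSO. All of them were lower. These are 21.7% and 17.4%, against 3.37% and 6.15% of all genes. P4ha3, a prolyl hydroxylase subunit, had changes of -2.21 (adjusted p = 0.01) and -1.82 (adjusted p = 0.022), and Bmp1, the procollagen C-proteinase, of -1.04 (adjusted p = 0.028) and -1.18 (adjusted p = 0.011). With trametinib, 2 changed in +dox cells, both upwards, and 5 rose and 1 fell in −dox cells (8.7% and 26.1%, against 26.2% and 22.4% of all genes), among them Plod3, a lysyl hydroxylase, by 0.68 (adjusted p = 0.035) and 1.06 (adjusted p = 0.0045). The P4ha3 call under DMSO ended without +dox DMSO replicate 2 or −dox DMSO replicate 2 or 3 (between 0.068 and 0.087), and those of Bmp1 under trametinib and of Plod3 in +dox cells on leaving out any of 5 arrays each (between 0.051 and 0.13). Of 27 other collagen chains, 2 differed with dox under trametinib and 3 under DMSO, all of them lower. These are 7.41% and 11.1%, against 3.37% and 6.15% of all genes. Col7a1, the anchoring fibril collagen beneath the epidermis, was lower by dox (-1.76, adjusted p = 0.00012, under trametinib) and fell with trametinib in +dox (-1.83, adjusted p = 1.9e-05) and −dox cells (-0.80, adjusted p = 0.0031). Col4a5, a further collagen IV chain, rose with trametinib by 1.28 and 1.09 in +dox and −dox cells (adjusted p = 0.0013 and 0.0045). The other collagen IV chains did not pass for dox. Col4a3 averaged 5.59 in +dox and 6.76 in −dox cells under trametinib and 4.71 and 5.18 under DMSO, Col4a4 6.34 and 7.64, and 4.53 and 6.55, and Col4a5 10.99 and 11.38, and 9.71 and 10.29, the +dox DMSO means of Col4a3 and Col4a4 being under background. The changes of Col4a6 were 0.00 under trametinib and -0.19 under DMSO. Trametinib raised 3 and lowered 2 of these chains in +dox cells and raised 4 and lowered 1 in −dox cells, which is 18.5% in either, against the 26.2% and 22.4% of all genes.

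Of 20 other proteoglycan genes, 1 was higher and 1 lower with dox under either drug condition. This is 10.0% under each, against 3.37% of all genes under trametinib and 6.15% under DMSO. Serglycin (Srgn), the proteoglycan of secretory granules, averaged 9.36 in +dox and 5.17 in −dox cells under trametinib (4.19, adjusted p = 0.00082), and 10.02 and 5.58 under DMSO (4.44, adjusted p = 0.0007). Has2, a hyaluronan synthase, averaged 4.71, under background, against 8.02 under trametinib (adjusted p = 0.00041). Prelp, a small leucine-rich proteoglycan, rose with trametinib by 2.12 in +dox cells (adjusted p = 0.0014). Trametinib changed 2 of the 20 in +dox (10.0%) and 3 in −dox cells (15%), against 26.2% and 22.4% of all genes. Of 38 other matrix glycoproteins, 8 rose and 4 fell with trametinib in +dox cells and 3 rose and 5 fell in −dox cells, which is 31.6% and 21.1%, near the 26.2% and 22.4% of all genes. Ccn5, a matricellular protein of the CCN family, rose by 3.96 and 3.13 in +dox and −dox cells (adjusted p = 2.8e-05 and 0.00018), whereas Mgp, an inhibitor of calcification, fell by 3.42 and 4.70 (adjusted p = 0.0091 and 0.0019). With dox, 1 was higher and 2 lower under trametinib, and 1 higher and 6 lower under DMSO. These are 7.89% and 18.4%, against 3.37% and 6.15% of all genes. Emilin2, a relative of Emilin1, was lower by 2.36 under DMSO (adjusted p = 0.0007). Of 11 other laminin and basement membrane genes, 1 was higher under each drug condition with dox (Lama3, under background in −dox cells). With trametinib 1 rose in +dox cells (Agrn, by 1.34, adjusted p = 0.0056) and 0 changed in −dox cells, with 3 at an unadjusted p under 0.05. Each count of 1 is 9.09%, against 3.37% and 6.15% of all genes for dox and 26.2% for trametinib in +dox cells. The Lama3 call under trametinib ended on leaving out any of 8 arrays (between 0.051 and 0.17).

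TGF-beta signalling is a known inducer of many of these matrix genes. Of 13 measured ligands, receptors and targets, 2 differed with dox under trametinib and 3 under DMSO, all of them lower. These are 15.4% and 23.1%, against 3.37% and 6.15% of all genes. Tgfb3, a ligand, was lower by 1.22 under trametinib (adjusted p = 0.015) and 1.08 under DMSO (adjusted p = 0.021). With trametinib 5 rose and 2 fell in +dox cells (53.8%) and 3 rose and 3 fell in −dox cells (46.2%). Of all genes, 26.2% and 22.4% changed. The receptor Tgfbr1 rose by 1.11 and 0.57 (adjusted p = 0.00038 and 0.021) and the ligand Tgfb2 by 1.12 and 1.48 (adjusted p = 0.022 and 0.0068), while Tgfbr3, a co-receptor, fell by 1.12 and 2.20 (adjusted p = 0.026 and 0.00083) in +dox and −dox cells. Calls that ended on leaving out 1 of 3 or 4 arrays were both of Tgfb3 (between 0.06 and 0.089), Tgfbr1 in −dox cells (between 0.052 and 0.076), and Tgfb2 and Tgfbr3 in +dox cells (between 0.053 and 0.1).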

How the data were processed

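RNA of 12 samples was hybridised to Affymetrix mouse genome arrays. The authors normalised the arrays with RMA, and the deposited table holds log2 intensities for 45101 probe sets, which were used as they are. The table holds no detection calls, and the number of arrays limits the precision. GEO's platform annotation named 34945 probe sets with 1 gene and 932 with several, 9211 are unnamed here, and 64 are controls. These counts overlap, since a control can also be unnamed. Of several single-gene probe sets, the one brightest on average over all arrays stood for its gene, and the background level was set as in the report. A change from or to a mean under it is a bound, the distance of the other mean from the level, and no fold is given where both means lay under it.

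All 18193 genes were fitted in limma 3.58.1 (R 4.3.3) with 4 group means and no covariate, and called at a Benjamini-Hochberg adjusted p under 0.05. The fit was tested on simulated data. The matrix genes and other lists were chosen with earlier results of these data known. Values per array were given for up to 6 rises and 6 falls per comparison, by size, whose higher mean was above background, and outside the list up to 3 genes per direction and comparison were eligible to be named. Same-numbered arrays deviated together, with correlations of 0.17 to 0.34 (dox under DMSO), 0.21 to 0.29 (dox under trametinib) and 0.16 to 0.45 (trametinib in +dox cells). For replicate 3 an array of another number correlated more for dox under DMSO (0.31, against 0.23) and for trametinib in +dox cells (0.19, against 0.16). Since all same-number values exceeded 0.1, the numbers were taken to pair these arrays, which no label states, and a p with the block is given where it changes a call. The main fit had no block, so its counts leave this pairing out. For trametinib in −dox cells the same-number correlations were 0.02 to 0.46, and the numbers were not taken to pair. The block was nevertheless fitted over all arrays together, so every p with the block treats the −dox arrays as paired by number too. Alternatives were the block, fits on the compared arrays alone, averaged probe sets, genes above background, quantile normalisation, median centring, a trended and robust eBayes, array weights, stricter thresholds and leaving out each array. A fit without both −dox arrays numbered 1 was added after seeing the data. Figures were drawn with matplotlib 3.10.9. Promoter windows are from RefSeq on GRCm38.p6.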

Additional observations from a re-analysis of the deposited data

Results flagged for a closer look

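Matn2, a matrilin of the pericellular matrix, was the gene of the matrix lists whose trametinib response differed between the kinds of cell. Its change was larger in +dox cells by 2.05 on the log2 scale (adjusted p = 0.031 from limma for the difference itself), with a rise of 2.73 in +dox cells (adjusted p = 1.9e-05). The call of the difference ended on leaving out any of 7 arrays (adjusted p between 0.058 and 0.083).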

How the results depend on the processing

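No call of a named gene reversed direction under any alternative. Leaving out 1 array in turn gave 12 to 19 changed matrix genes for dox under trametinib, 11 to 16 for dox under DMSO, 15 to 22 for trametinib in +dox cells, 13 to 21 in −dox cells (13 without −dox trametinib replicate 3) and 0 to 0 for the difference between responses. Of 14, 16, 20 and 21 calls in these comparisons, 12, 9, 15 and 13 passed without each array in turn. At an adjusted p under 0.01, 9 genes changed with dox under DMSO and 11 with trametinib in −dox cells. Without both −dox arrays numbered 1, 24 changed with dox under trametinib, against 14 with all arrays, and the cause was not tested. How many of all genes were called in that fit is not given here. Fitted on the compared arrays alone, the counts were 11, 14, 25, 15 and 0, with calls ended for Col1a1, Bgn and Postn (dox under trametinib), Fbln5 and Mfap5 (dox under DMSO) and Col6a1, Col6a2, Col8a1, Lama2, Nid1 and Fbln2 (trametinib in −dox cells). The replicate block gave counts of 18, 20, 23 and 26, and 3 genes passed for the difference (Dcn, Fbln1 and Tnc, adjusted p = 0.049, 0.047 and 0.023), against 0 without it. With array weights 5 passed for the difference. The block ended no call of a matrix gene. In −dox cells, where the numbers were not taken to pair, Col5a2, Col4a2, Fbln1, Sparc and Thbs1 passed for trametinib with the block. With a gene's probe sets averaged, calls ended for Fn1 with dox under trametinib, Fbln2, Fbln5 and Mfap5 with dox under DMSO, Vcan and Thbs2 with trametinib in +dox cells and Dcn in −dox cells. Centring each array on its median moved the median change of all genes to -0.11 and 0.11 for dox under trametinib and under DMSO, 0.19 for trametinib in −dox cells and -0.21 for the difference. The share of higher genes among all called was then 40.9%, 71.2%, 73.1% and 22.6%, against 57.8%, 46.7%, 51.9% and 78.3% without centring, while the matrix genes split into 4 higher and 11 lower, 4 and 12, 21 and 4, and 0 and 0.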
